A study of Homo sapiens with 6 samples.

Results

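The genes described here make cholesterol and fatty acids, together with the regulators that set their transcription. They were chosen by name, as 43 gene symbols that were looked up in the 26364 rows of the authors' deposited table, and all 43 were found. By role they fell into 21 genes of sterol synthesis, uptake and storage, 14 genes of fatty acid synthesis, elongation, desaturation and use, and 8 regulators of the SREBP and LXR systems. The cells were REH, an established cell line from a human B-precursor acute lymphoblastic leukaemia, kept in serum-containing medium. One group received S3I-201, an inhibitor of the transcription factor STAT3, at 50 µM, and the other received its solvent DMSO, both for 6 h. Each of the 2 groups held 3 RNA-seq libraries, and the labels speak of 3 independent experiments.

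Cells build cholesterol from acetyl-CoA through the mevalonate pathway, squalene and lanosterol, and they build fatty acids from acetyl-CoA through malonyl-CoA. SREBP-1 and SREBP-2, encoded by SREBF1 and SREBF2, are transcription factors that wait in the endoplasmic reticulum membrane. When sterols are scarce, the escort SCAP carries them to the Golgi, where they are cut and released to the nucleus. The INSIG proteins hold SCAP back when sterols are plentiful. The LXR receptors, encoded by NR1H2 and NR1H3, sense oxysterols and induce genes that limit uptake and favour export. Proliferating leukaemia cells draw on both pathways for membrane lipids.

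The authors' deposited table gave an adjusted p for 41 of the members, of which 1 was higher with S3I-201, 1 was lower and 39 did not pass a threshold of 0.05. The higher gene was STARD4, a carrier of sterols between membranes, and the lower gene was FASN, the synthase that makes palmitate. Among all 11912 genes with an adjusted p, 5.9% passed, 4.45% as higher and 1.45% as lower, against 4.88% of the members. The share of members called was thus near that of all genes. The table does not name the reference group; DMSO was taken as the reference, so that a positive value means more transcript with S3I-201, and all directions below would be the opposite if S3I-201 had been the reference.

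Each gene has 1 mean normalized count over the 6 libraries in the table, next to its fold change and p-values, so no value per library can be shown and overlap between the groups cannot be seen. Errors below are standard errors (SE) implied by the table, found by dividing the log2 fold change by the normal deviate that matches its p-value, and 95% intervals follow from them. In the authors' deposited table a gene with 1 read had a log2 fold change of no more than 0.042, so the values appear shrunken towards 0 and those of weakly expressed genes are understated. The implied SE is then small as well, at 0.058 for VLDLR, so intervals can be too narrow as bounds on the change before shrinkage. Such single reads also gave the relative depth of the libraries, with size factors from 0.573 to 1.27 and an estimated 6557500 to 14519600 counts each. Of 12 B-precursor markers, 11 had means from 1041 to 13622 and VPREB1 was listed at 0 in the authors' deposited table. All 11 expressed ones had negative log2 fold changes, from -0.61 to -0.06 with a median of -0.22, and 1 of the 10 with an adjusted p was lower, CD24, a surface protein, at -0.61 in the authors' deposited table (adjusted p = 0.00505). Markers of T cells and erythroid cells had means of at most 0.626 there. MPO, a myeloid enzyme, had a mean of 978 (log2 fold change -0.16, adjusted p = 0.677) and CSF1R, a myeloid receptor, one of 127 in the authors' deposited table. The other 3 myeloid markers had means of 2.17 to 6.93 there. The part of these markers in the results was not tested.

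Promoter sequences from RefSeq (GRCh38.p14) were found for 39 of the 43 members, and FASN was not among them. The 250 bases before the start site are shown for STARD4, the higher member, for HMGCS1, the mevalonate enzyme with the smallest p-value, and for SREBF2, the only regulator whose promoter holds the sterol regulatory element searched for. Capitals mark the NF-Y box CCAAT, the GC box GGGCGG and, in SREBF2, the sterol regulatory element core TCACNCCAC, each on either strand.
STARD4, chr5:111512536-111512785, minus strand: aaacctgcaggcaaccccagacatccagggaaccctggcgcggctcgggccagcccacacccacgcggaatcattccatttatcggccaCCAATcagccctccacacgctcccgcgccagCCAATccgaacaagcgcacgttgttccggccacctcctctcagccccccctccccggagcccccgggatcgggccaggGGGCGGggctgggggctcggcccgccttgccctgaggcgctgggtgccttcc
HMGCS1, chr5:43313413-43313662, minus strand: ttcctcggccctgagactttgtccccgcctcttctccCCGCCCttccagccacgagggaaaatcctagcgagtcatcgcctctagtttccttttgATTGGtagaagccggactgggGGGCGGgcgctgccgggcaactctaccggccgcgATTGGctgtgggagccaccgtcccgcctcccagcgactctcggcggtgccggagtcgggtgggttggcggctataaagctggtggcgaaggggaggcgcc
SREBF2, chr22:41832855-41833104, plus strand: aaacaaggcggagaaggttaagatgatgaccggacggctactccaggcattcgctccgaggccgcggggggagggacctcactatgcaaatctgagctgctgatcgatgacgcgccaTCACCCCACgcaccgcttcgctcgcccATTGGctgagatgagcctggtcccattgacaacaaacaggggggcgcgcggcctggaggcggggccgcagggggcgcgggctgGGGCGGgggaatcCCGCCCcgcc

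In STARD4 the capitals mark 2 NF-Y boxes and 1 GC box, in HMGCS1 2 of each, and in SREBF2 1 sterol regulatory element core, 1 NF-Y box and 2 GC boxes. The sequence of HMGCS1 is that before its start site 1. Before its start site 2, not shown, 0 NF-Y boxes and 2 GC boxes were found. SREBPs are known to act with NF-Y and Sp1, the factors that bind these boxes. Over windows of 250 bases before to 50 after each start site, the NF-Y box was found for 28 of 39 members (71.8%), against 43.5% of the 8972 genes with both an adjusted p and a promoter and 39.7% of all 27305 genes with a promoter. The GC box was found for 37 members (94.9%), against 77.3% and 48.3% of the same sets. The sterol regulatory element core was found for 2 members (5.13%), SREBF2 and ACSL1, against 1.40% and 1.39%. Only the letters TCACNCCAC were searched for, so a promoter without a match may still hold a sterol regulatory element with other letters. The E-box CACGTG was found for 5 members (12.8%, against 12.7% and 8.77%) and the antioxidant element TGACNNNGC for 7 (17.9%, against 19.4% and 16.1%). For the CARE core TGATGNAAN, to which ATF4 binds, 0 members matched, against 2.60% and 4.45%. The LXR element known as DR4 also had 0 matches among members, against 0.0111% and 0.0256%. A gene with several start sites was counted once if any window matched, and these matches are descriptions of the letters and not of binding.

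The plot of fold changes gene by gene shows both called members and the intervals of the rest. Levels can be compared between genes only per length, here as the mean normalized count per kb of GENCODE 29 exons pooled over isoforms. On that scale ACLY was the most abundant member at 1027 and ELOVL6 the least abundant one with an adjusted p at 15.4, with a median of 141. FASN stood at 677, ELOVL5 at 660, FDFT1 at 535, SREBF2 at 513 and FDPS at 511, while STARD4 stood at 40.4 on the scale per kb. These levels pool treated and control libraries and describe no change.

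**Figure D1:**
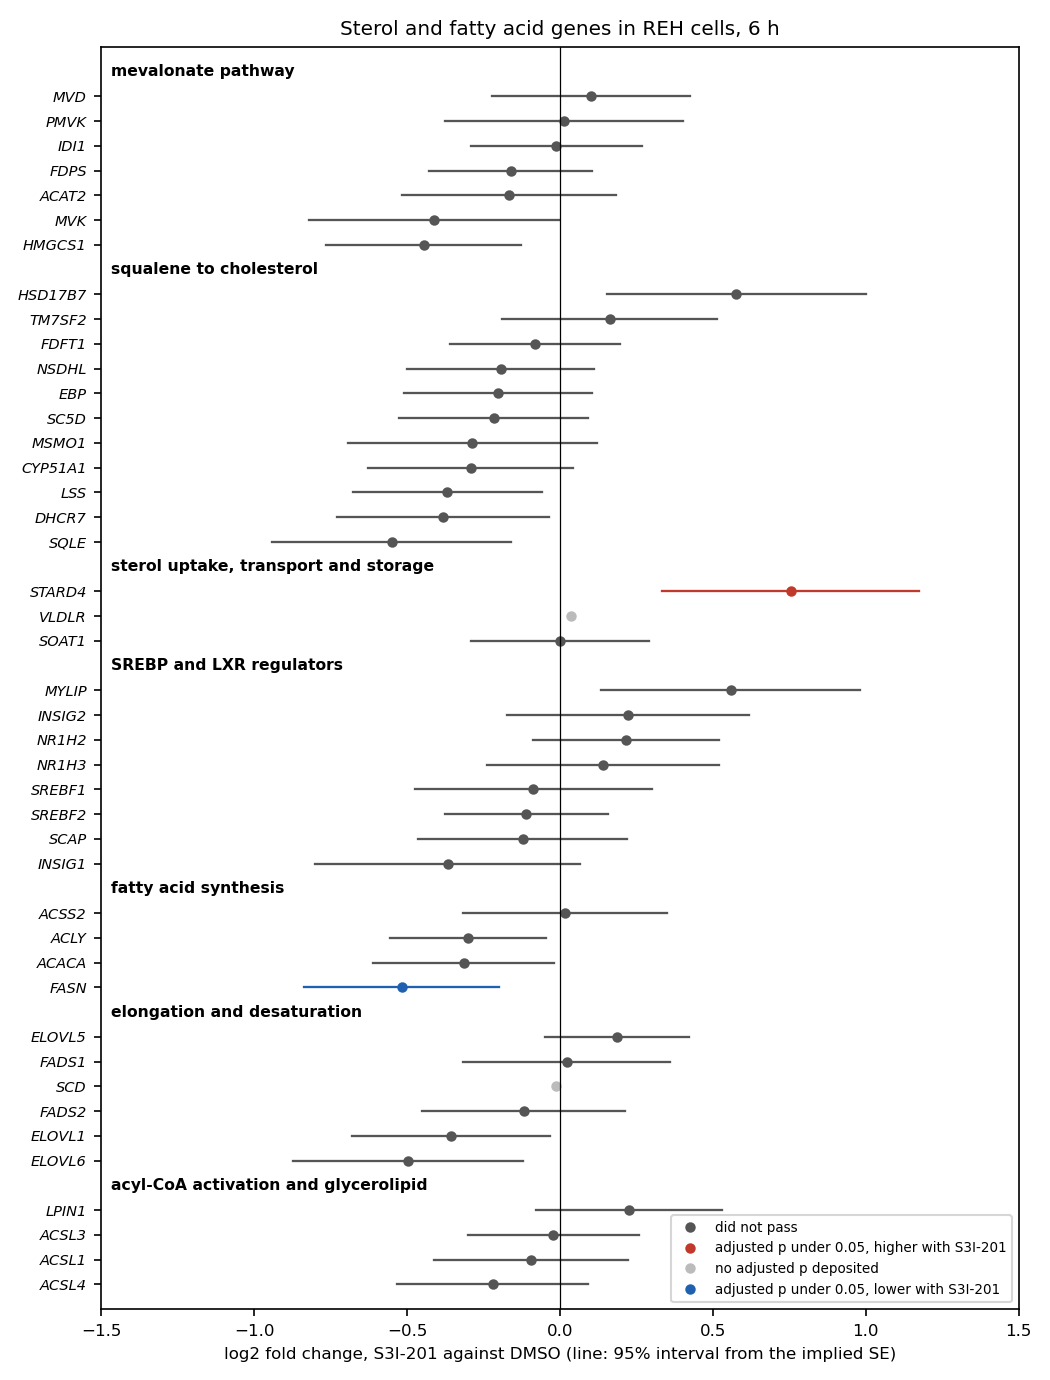
Log2 fold change of each of the 43 members between S3I-201 and DMSO, grouped by role, with 95% intervals from the implied SE as lines; the 2 members with no adjusted p have no line. STARD4 at 0.75 and FASN at -0.52 are the coloured points, and the intervals of HMGCS1, SQLE, HSD17B7 and MYLIP, among others, lie on 1 side of 0 although their adjusted p did not pass.

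Sterol synthesis was the first question. At the DESeq2 adjusted p of the authors 0 of its 18 enzymes passed, against 5.9% of all genes with an adjusted p. An unadjusted p under 0.05 was found for 1 with a positive value (5.56%, against 9.11% of all genes). It was found for 5 with a negative value (27.8%, against 6.88% of all genes). The median log2 fold change of the 18 enzymes was -0.20, with 14 of 18 negative (77.8%), against a median of -0.022 and 53.6% negative among all genes with an adjusted p. Abundant genes had lower values in general, with a median of -0.03 and 55.3% negative at means of 300 to 1000. At means of 1000 to 3000 the median was -0.05 with 59.8% negative. The 18 enzymes had means with a median of 795. After the median fold change of genes of like abundance was removed, 13 of the 18 were negative, since IDI1 turned from -0.012 to 0.040, and the median was -0.16.

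The mevalonate pathway, from acetyl-CoA to farnesyl diphosphate, had a median of -0.16 over 7 genes, of which 5 were negative. Without the genes that can share reads with a pseudogene or a gene on the other strand, 2 were left, PMVK and MVD, with a median of 0.057. HMGCS1, which condenses acetyl-CoA and acetoacetyl-CoA to HMG-CoA, had a mean of 1481 and stood at -0.45 (log2) in the authors' deposited table (SE 0.16, interval -0.76 to -0.13, adjusted p = 0.0864). MVK, which phosphorylates mevalonate, had -0.41 in the authors' deposited table at a mean of 161 (SE 0.21, adjusted p = 0.306). FDPS, which makes farnesyl diphosphate, had -0.16 at a mean of 1900 in the authors' deposited table (SE 0.14, adjusted p = 0.650). None of these passed, and the other 4 had larger p-values. ACAT2, the thiolase of the first step, had -0.17, MVD, the decarboxylase, 0.10, PMVK, the second kinase, 0.014 and IDI1, the isomerase, -0.012 in the authors' deposited table. IDI1 had an interval of -0.29 to 0.27. The TruSeq RNA v2 kit that the labels name does not mark the strand, and exons of ACAT2 overlap those of TCP1, SOD2 and SOD2-OT1 on the other strand, over 1458 bases for SOD2-OT1. TCP1 had a mean of 5654 and stood at 0.0088 (log2) in the authors' deposited table, so the value of ACAT2 is uncertain. Exons of HMGCS1 overlap those of AC114947.2 on the other strand over 703 bases, so HMGCS1 can share reads as well.

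The branch from squalene to cholesterol had a median of -0.22 over 11 genes, with 9 negative values. SQLE, the epoxidase of the first oxygenation step, had the lowest value of all members, at -0.55 with a mean of 1035 in the authors' deposited table (SE 0.20, interval -0.94 to -0.16, adjusted p = 0.0817). HSD17B7, a ketoreductase of the removal of methyl groups, had the second highest value of all members, at 0.58 with a mean of 112 in the authors' deposited table (SE 0.22, adjusted p = 0.101). LSS, which closes the sterol rings, had -0.37 with a mean of 1024 in the authors' deposited table (SE 0.16, adjusted p = 0.182). All 3 missed the threshold, and HSD17B7 was the exception in sign. Its pseudogene HSD17B7P2, with which it can share reads, had a mean of 30.2 and stood at 0.34 (log2) in the authors' deposited table (adjusted p = 0.591), so the value of HSD17B7 is uncertain. Exons of LSS overlap those of AP001468.1 on the other strand over 448 bases, so LSS can share reads as well.

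The other 8 genes of this branch ranged from -0.38 to 0.16. DHCR7, the last reductase of the Kandutsch-Russell route, had -0.38 and CYP51A1, the lanosterol demethylase, had -0.29 in the authors' deposited table, with adjusted p-values of 0.242 and 0.427. MSMO1, the sterol methyl oxidase, had -0.29, SC5D, the desaturase, -0.22, EBP, the isomerase, -0.20 and NSDHL, a decarboxylating dehydrogenase, -0.19 in the same table of the authors. FDFT1, squalene synthase, had -0.08 with an interval of -0.36 to 0.20, and TM7SF2, a sterol reductase, had 0.16 in the authors' deposited table (adjusted p = 0.756). Neighbouring steps therefore had values of like sign apart from TM7SF2 and HSD17B7, and no step passed.

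Genes of sterol uptake, transport and storage numbered 3, of which 2 had an adjusted p. STARD4 lies on chromosome 5 from 111496033 to 111512590 (hg38, whole gene, ENSG00000164211.12) and binds cholesterol through a START domain. It had a mean of 230 and was 1.69-fold higher with S3I-201 in the authors' deposited table (log2 fold change 0.75, SE 0.21, interval 0.33 to 1.17, p = 0.000425, DESeq2 adjusted p = 0.0111). The call held when abundance was taken out (log2 0.77, adjusted p = 0.00855) and when all genes with a p-value were adjusted together (adjusted p = 0.0156). STARD4-AS1, which overlaps STARD4 on the other strand over 124 exonic bases, had a mean of only 6.09 in the authors' deposited table.

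SOAT1, which esterifies cholesterol for storage, had 0.00068 with an interval of -0.29 to 0.29 at a mean of 624 in the authors' deposited table (adjusted p = 0.999). VLDLR, a lipoprotein receptor, had a mean of 0.131, the value that 1 read in 1 library gives, and so could not be compared at this depth.

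Among the 8 regulators, 4 values were negative and 4 positive, and the median was 0.03. At the DESeq2 adjusted p of the authors 0 of 8 passed, against 5.9% of all genes with an adjusted p. An unadjusted p under 0.05 was found for 1, with a positive value (12.5%, against 9.11% of all genes). SREBF2, the main factor for sterol genes, had a mean of 3875 and stood at -0.11 (log2) in the authors' deposited table (SE 0.14, interval -0.38 to 0.16, adjusted p = 0.792). SREBF1, whose products act on fatty acid and sterol genes, had -0.09 in the authors' deposited table (interval -0.47 to 0.30, adjusted p = 0.910). SCAP, the escort of both factors, had -0.12 in the authors' deposited table (interval -0.46 to 0.22). The intervals of these 3 genes reached no further than 0.47 on the negative side and 0.30 on the positive side of the log2 scale. RAI1, whose exons overlap those of SREBF1 on the other strand over 556 bases, had a mean of 1303 and -0.26 in the authors' deposited table (adjusted p = 0.300).

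The INSIG genes differed in sign. INSIG1, itself a target of SREBP, had -0.37 at a mean of 1099 in the authors' deposited table (SE 0.22, interval -0.80 to 0.07, adjusted p = 0.452). INSIG2, its paralog, had 0.22 at a mean of 134 in the authors' deposited table (SE 0.20, interval -0.17 to 0.62, adjusted p = 0.688). Both intervals include 0, and the difference between the genes was not tested.

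Of the LXR members, the receptor genes NR1H2 and NR1H3 and the target MYLIP had positive values. SREBF1, FASN and SCD, members that LXR is also known to induce, had -0.09, -0.52 and -0.015 in the authors' deposited table. They were named as LXR targets after their values were seen. Among LXR targets that are no members the sign differed as well, with 0.71 for ABCA1 in the authors' deposited table. LPCAT3 and ABCG1, which were named after their values were seen, had -0.39 and -0.08 there. MYLIP, the LXR target that marks lipoprotein receptors for breakdown, had the largest value of the LXR members at 0.56 with a mean of 180 in the authors' deposited table (SE 0.22, interval 0.13 to 0.98, adjusted p = 0.118). NR1H2, LXR beta, had 0.22 in the authors' deposited table (SE 0.15, adjusted p = 0.561). NR1H3, LXR alpha, had 0.14 in the authors' deposited table (SE 0.19, adjusted p = 0.821). NR1H2, NR1H3 and MYLIP did not pass, and neither did ABCA1, LPCAT3 and ABCG1. ACP2 overlaps exons of NR1H3 on the other strand over 189 bases and had -0.36 in the authors' deposited table (adjusted p = 0.268).

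Fatty acid genes had a median of -0.12 over the 13 of 14 with an adjusted p, with 9 negative values (69.2%, against 53.6% of all genes). At means of 3000 and more, where FASN, ACLY and FADS2 lie, all genes had a median of -0.07 with 67.1% negative. After the median fold change of genes of like abundance was removed, 8 of the 13 were negative and their median was -0.08. Of the 13 fatty acid genes with an adjusted p, 1 passed, as lower. That single gene makes 7.69%, against 5.9% of all genes in either direction and 1.45% as lower. The 4 enzymes that make acetyl-CoA and palmitate stood lowest, with a median of -0.31. FASN, on chromosome 17 from 82078333 to 82098332 (hg38, whole gene, ENSG00000169710.8), had a mean of 6337 and was 1.43-fold lower with S3I-201 in the authors' deposited table (log2 fold change -0.52, SE 0.16, interval -0.84 to -0.20, p = 0.00145, DESeq2 adjusted p = 0.0288). The call was lost when the fold change of genes of like abundance was removed (log2 -0.45, adjusted p = 0.0835). ACACA, which makes malonyl-CoA, had -0.32 at a mean of 1367 in the authors' deposited table (SE 0.15, adjusted p = 0.264). ACLY, which splits citrate into acetyl-CoA, had -0.30 at a mean of 5359 in the authors' deposited table (SE 0.13, adjusted p = 0.191). These 3 successive enzymes all had unadjusted p-values under 0.05 and negative values, and 1 of them passed. ACSS2, which makes acetyl-CoA from acetate, had 0.016 in the authors' deposited table (interval -0.32 to 0.35, adjusted p = 0.981).

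Elongases and desaturases had a median of -0.12 over the 5 genes with an adjusted p. At the DESeq2 adjusted p of the authors 0 of 5 passed, against 5.9% of all genes. An unadjusted p under 0.05 was found for 2, with negative values (40%, against 6.88% of all genes). ELOVL6, which extends palmitate to stearate, had -0.50 at a mean of 112 in the authors' deposited table (SE 0.19, interval -0.87 to -0.12, adjusted p = 0.118). ELOVL1, an elongase of very long saturated chains, had -0.36 at a mean of 675 in the authors' deposited table (SE 0.17, adjusted p = 0.241). ELOVL5, an elongase of polyunsaturated chains, had 0.19 at a mean of 2516 in the authors' deposited table (SE 0.12, interval -0.05 to 0.42, adjusted p = 0.495). None of these 3 elongases passed, and ELOVL5 was the one with a positive value.

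FADS1, the delta-5 desaturase, had 0.022 and FADS2, the delta-6 desaturase, had -0.12 in the authors' deposited table, with adjusted p-values of 0.974 and 0.828. Exons of these neighbours overlap on opposite strands over 490 bases, so part of their reads cannot be told apart. SCD, the delta-9 desaturase that makes oleate, had a mean of 368 and -0.015 in the authors' deposited table but lacked a p-value, which is how DESeq2, the authors' tool, by default marks a gene with an outlying count in some library.

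Enzymes that activate or store fatty acids had a median of -0.06. At the DESeq2 adjusted p of the authors 0 of 4 passed, against 5.9% of all genes. An unadjusted p under 0.05 was also found for 0 of 4, against 9.11% of all genes as higher and 6.88% as lower. LPIN1, a phosphatidate phosphatase, had 0.23 at a mean of 791 in the authors' deposited table (SE 0.16, adjusted p = 0.539). ACSL4, an acyl-CoA synthetase that prefers arachidonate, had -0.22 at a mean of 767 in the authors' deposited table (SE 0.16, adjusted p = 0.566). ACSL1, another acyl-CoA synthetase, had -0.09 at a mean of 242 in the authors' deposited table (SE 0.16, adjusted p = 0.867). ACSL3, of the same family, had -0.021 in the authors' deposited table (adjusted p = 0.968).

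**Figure D2:**
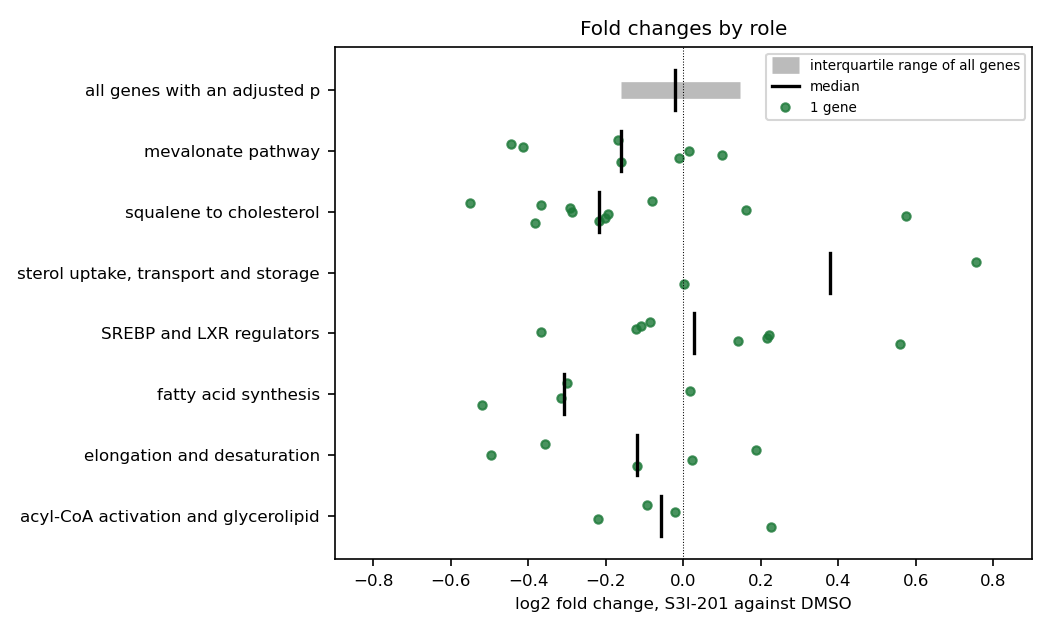
Log2 fold changes of the 41 members with an adjusted p by role, with 1 point a gene, a bar at each median and, in the top row, the interquartile range of all 11912 genes with an adjusted p. Medians were -0.16 and -0.22 for the 2 groups of sterol enzymes, -0.31 for fatty acid synthesis and 0.03 for the regulators.

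Across roles, 10 of the 41 members (24.4%) had an unadjusted p under 0.05 with a negative value, against 6.88% of all genes with an adjusted p. These were HMGCS1, MVK, SQLE, LSS, DHCR7, ACLY, ACACA, FASN, ELOVL1 and ELOVL6, all of them enzymes of synthesis or elongation. With a positive value, 3 of 41 (7.32%) had an unadjusted p under 0.05, against 9.11% of all genes, and these were STARD4, HSD17B7 and MYLIP. The shares are descriptions, since the members respond to shared regulators and are not independent of each other. The members were also chosen with earlier results of these data known, so the shares cannot serve as a test of the set. The smallest change that passed was 0.43 on the log2 scale at means of 300 to 1000 and 0.39 at means of 1000 to 3000, and 7 of the 41 members had values at least as large as the smallest one called in their range of means. Of the 41 members, 16 had intervals that lay wholly between -0.5 and 0.5, on a scale of values that appear shrunken.

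**Figure D3:**
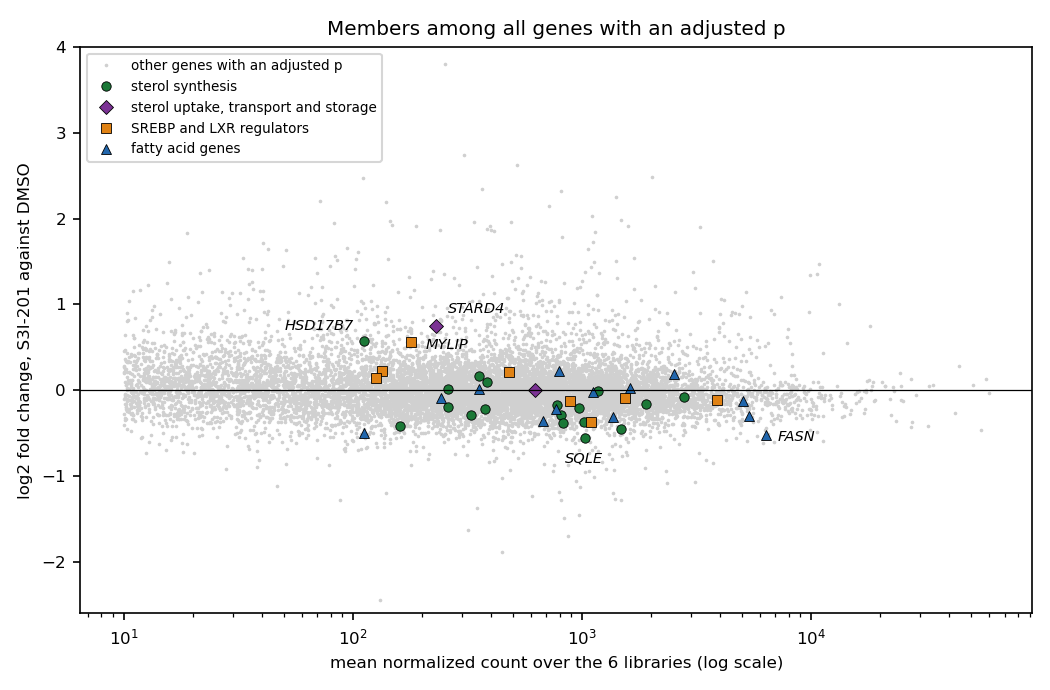
Log2 fold change against mean normalized count (log axis) for all 11912 genes with an adjusted p in grey and for the 41 members among them in colour by role. Members lie in the dense part of the cloud between means of 112 and 6337, with STARD4, MYLIP and HSD17B7 above it and SQLE and FASN towards its lower edge.

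Beyond the members, a list of 53 other genes of both pathways held 43 with an adjusted p, of which 1 was higher and no other passed. Of all genes with an adjusted p, 4.45% passed as higher and 1.45% as lower, so the list held no excess of calls. OSBP, which exchanges cholesterol for a phosphoinositide between the endoplasmic reticulum and the Golgi, was 1.45-fold higher at a mean of 1768 in the authors' deposited table (log2 fold change 0.53, SE 0.17, adjusted p = 0.0360). OSBP did not pass when all genes with a p-value were adjusted together (adjusted p = 0.0508). ABCA1, the LXR target that exports cholesterol, had 0.71 at a mean of 161 in the authors' deposited table (SE 0.25, adjusted p = 0.0713). Other sterol genes had a median of 0.0014 over 20, with 9 negative. Other fatty acid genes had a median of -0.07 over 23, with 15 negative, and 0 passed at the DESeq2 adjusted p of the authors. An unadjusted p under 0.05 was found for 1, with a negative value (4.35%, against 6.88% of all genes). That gene was FABP5, a fatty acid carrier, with -0.45 in the authors' deposited table (SE 0.20, adjusted p = 0.189), and PPARD, a nuclear receptor for fatty acids, followed with 0.25 (adjusted p = 0.460).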

How the data were processed

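RNA-seq values of 6 libraries of REH cells, 3 with DMSO and 3 with S3I-201, were taken from the authors' deposited table of 26364 genes, which pools the libraries. The mean normalized count (signal) is the authors' column baseMean, the name that DESeq2 gives to a mean over size-factor-scaled counts. Per the file headers, the authors also computed the log2 fold change and, for each gene, a p-value with its adjusted form, under column names that DESeq2 uses. hg38, bcl2fastq 2.19, Trimmomatic, Bowtie2, Picard, featureCounts and DESeq2 are named in the submitters' processing notes, with no role or order. The annotation, the strand setting and the design of the model are not given in the sources used here.

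Since this unit allows no test on counts, which the design had foreseen, the adjusted p was taken as deposited and called under 0.05. It is given for 11912 genes, with means of at least 10.0. Own steps in Python 3.11.15 (scipy 1.17.1) were the implied SE, 95% normal intervals, medians by role, a Benjamini-Hochberg correction over the 16974 genes that have a p-value and subtraction of a bin's median fold change (20 bins by abundance). The implied SE, the correction and the subtraction were tried on simulated data, and the intervals and medians were not. The simulated noise was drawn from the same SE, so recovery of the SE was given by construction. Gene positions, exon lengths and overlaps came from GENCODE 29 on hg38. No test per list was made. A gene of the other pathway list is not reported here. Members with a call, the 3 smallest p-values per role, and, of the other pathway genes, those called and the 2 smallest p-values per list are given in full. The members and lists were chosen with earlier results of these data known.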

Additional observations from a re-analysis of the deposited data

How the results depend on the processing

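No paired analysis was possible because the deposited table holds no values per library, and for the same reason no replicate could be left out. The count of higher members, 1, became 0 at a threshold of 0.01, and that of lower members, also 1, became 0 at 0.01, 3 at 0.1 (FASN, SQLE and HMGCS1) and 0 with the abundance trend removed. Of other pathway genes, 1 was higher, with 0 at a threshold of 0.01, 2 at 0.1 and 0 with adjustment over every gene with a p-value, and 0 were lower by DESeq2, with 1 at 0.1. Without the 20 members that can share reads with a pseudogene or a gene on the other strand, the mevalonate median turned from -0.16 to 0.0573, with 2 genes left, that of uptake, transport and storage went from 0.38 to 0.000678 with only SOAT1 left, and that of elongation and desaturation from -0.12 to -0.36. With VLDLR included, the median of uptake, transport and storage was 0.0357. The alternatives included the mean in place of the median, which gave the ends of -0.11 and -0.17 below. Over all alternatives, values ranged from -0.19 to -0.070 for all members (median as reported -0.12), -0.20 to -0.11 for sterol synthesis and uptake (-0.18), -0.27 to -0.080 for all fatty acid genes (-0.12), 0.027 to 0.22 for the regulators (0.027), -0.16 to -0.024 for acyl-CoA activation (-0.06), -0.36 to -0.049 for elongation and desaturation (-0.12), -0.22 to -0.17 for squalene to cholesterol (-0.22) and -0.32 to -0.25 for fatty acid synthesis (-0.31). Of 24 genes under 2 alternatives each, FASN and OSBP lost their call once each and the other 46 of 48 values kept direction and side of the threshold. Depth limits genes with few reads, such as VLDLR.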

Other observations

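Some genes of these pathways gave almost no reads in REH cells, and they were named after their values were seen. SOAT2, the paralog of SOAT1, had a mean of 0.280, and CH25H, the cholesterol 25-hydroxylase, was listed at 0 in the authors' deposited table. Among fatty acid genes, ELOVL4 was listed at 0, and the means of ELOVL3, ACSL6, ME1, DGAT2 and PPARG lay between 0.131 and 0.422 in the authors' deposited table. 

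LPCAT3, an LXR target that remodels phospholipids, stood at -0.39 (log2) in the authors' deposited table (SE 0.14, adjusted p = 0.0886), opposite in sign to the LXR targets ABCA1 at 0.71 and MYLIP at 0.56. ABCG1, a further LXR target that exports sterols, had -0.08 at a mean of 11.3 in the authors' deposited table (adjusted p = 0.944). None of the 4 passed 0.05.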
